A study of Mus musculus with 9 samples.

Results

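Abcd3 and 7 other genes of the peroxisome were described in whole skin of mice with and without Cd1d. The genes were chosen with earlier results of these arrays in view. The signal of Abcd3 in this same comparison, low in the knockout mice but for knockout 4, raised the question of whether any other peroxisomal gene follows it. Its difference between genotypes is therefore a description and carries no test. The 8 genes (Abcd3, Cat, Hsd17b4, Ehhadh, Scp2, Pex11a, Pex19 and Pex6) are read by 11 of the 12422 probe sets that are not controls, which name 8251 genes in all.

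The samples were 5 mice lacking the lipid-presenting molecule CD1d (Cd1d -/-, knockout 1 to 5) and 4 wild-type mice (Cd1d +/+, wild type 1 to 4). All were inbred on the C57BL/6 background, matched for age and sex per the labels, and none had been irradiated with UVB. Age, sex, the deleted part of the gene and whether the groups were littermates are not given in the sources used here. Each mouse gave 1 Affymetrix MG-U74 array, so n counts mice.

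Peroxisomes are small organelles bounded by a single membrane. Their enzymes shorten very long and branched fatty acids, start the synthesis of ether lipids and break down hydrogen peroxide. Proteins called peroxins build and divide the organelle and carry enzymes into it, and nuclear receptors of the PPAR family switch on many of its genes when fatty acids are plentiful. In skin the organelle is best known from the lipid-producing cells of the sebaceous gland.

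Abcd3 encodes PMP70, an ATP-driven transporter of the peroxisomal membrane that takes in branched fatty acids and bile acid precursors. The gene lies on chromosome 3, as does Cd1d1. The 250 bases before its start in the RefSeq table (build GRCm38.p6, chr3:121815303-121815552, minus strand) are shown because this is the member whose transcript differs most, with CG pairs in capitals.

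Abcd3: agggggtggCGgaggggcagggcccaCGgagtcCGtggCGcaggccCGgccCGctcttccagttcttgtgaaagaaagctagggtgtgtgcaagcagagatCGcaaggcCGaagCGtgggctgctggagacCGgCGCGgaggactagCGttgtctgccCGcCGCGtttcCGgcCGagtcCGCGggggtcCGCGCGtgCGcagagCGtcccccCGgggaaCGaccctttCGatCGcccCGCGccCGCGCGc

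This window holds 34 CG pairs, a number reached by 3.53% of the 32851 windows of the table, whose median is 6. It was searched on both strands for the PPAR direct repeat (2 copies of AGGTCA with any 1 base between them), for the single copy AGGTCA that nuclear receptors bind, and for the GC box GGGCGG, the box CCAAT, the TATA box TATAAA and the E box CACGTG, where a direct repeat also counts as a single copy. None of these letters is in the Abcd3 window. The shares of all windows with a match were 0.0335%, 14.0%, 32.7%, 33.8%, 12.4% and 6.02%, in that order. Of the 8 genes, 6 had a window in the table, and the PPAR direct repeat was in none of them. The window of Cat held AGGTCA once, GGGCGG once and CCAAT 4 times, that of Scp2 AGGTCA and GGGCGG once each, that of Ehhadh GGGCGG 2 times and CCAAT once, and that of Pex6 GGGCGG 2 times. That of Pex11a held none of the letters searched. A second Abcd3 window of the table (chr3:121814910-121815159) holds 35 CG pairs and none of those letters either. This is the reference sequence, and the DNA of these mice was not analysed here.

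The Abcd3 probe set read 421.7, 446.8, 430.9, 984.9 and 390.1 in the 5 knockout mice, in arbitrary MAS5 signal units and in the order of the mouse numbers, as throughout. The 4 wild-type mice read 1286.1, 1112.2, 1211.6 and 1249.9. Knockout 1, 2, 3 and 5 were low and close together, whereas knockout 4 stood near the wild-type mice and just below the lowest of them, so the groups did not overlap. The mean was 535 ± 252 in knockout (SD, n = 5) and 1215 ± 75.0 in wild-type skin (SD, n = 4). The log2 difference, knockout minus wild type, was -1.28 (SE 0.24, 95% interval -1.80 to -0.76). In skin as a whole, fewer cells of a type and less RNA per cell cannot be told apart.

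Knockout 1, 2, 3 and 5 averaged 422 ± 23.9 (SD, n = 4), or 34.8% of the wild-type mean, and knockout 4 was at 81.1% of it. Within these 4 mice the coefficient of variation was 5.65%, and among the wild-type mice it was 6.17%. On the log2 scale knockout 4 was 1.22 above the mean of the other knockout mice and 0.30 below the wild-type mean. The values deposited for 5 arrays have 7 decimals and those for 4 arrays have 9, and whether this marks a batch is not known. The log2 difference of Abcd3 was -1.45 within the 7-decimal arrays (knockout 1 and 2, wild type 2, 3 and 4). It was -1.23 (SE 0.53) within the 9-decimal arrays, which hold knockout 3, 4 and 5 but only wild type 1.

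**Figure D1:**
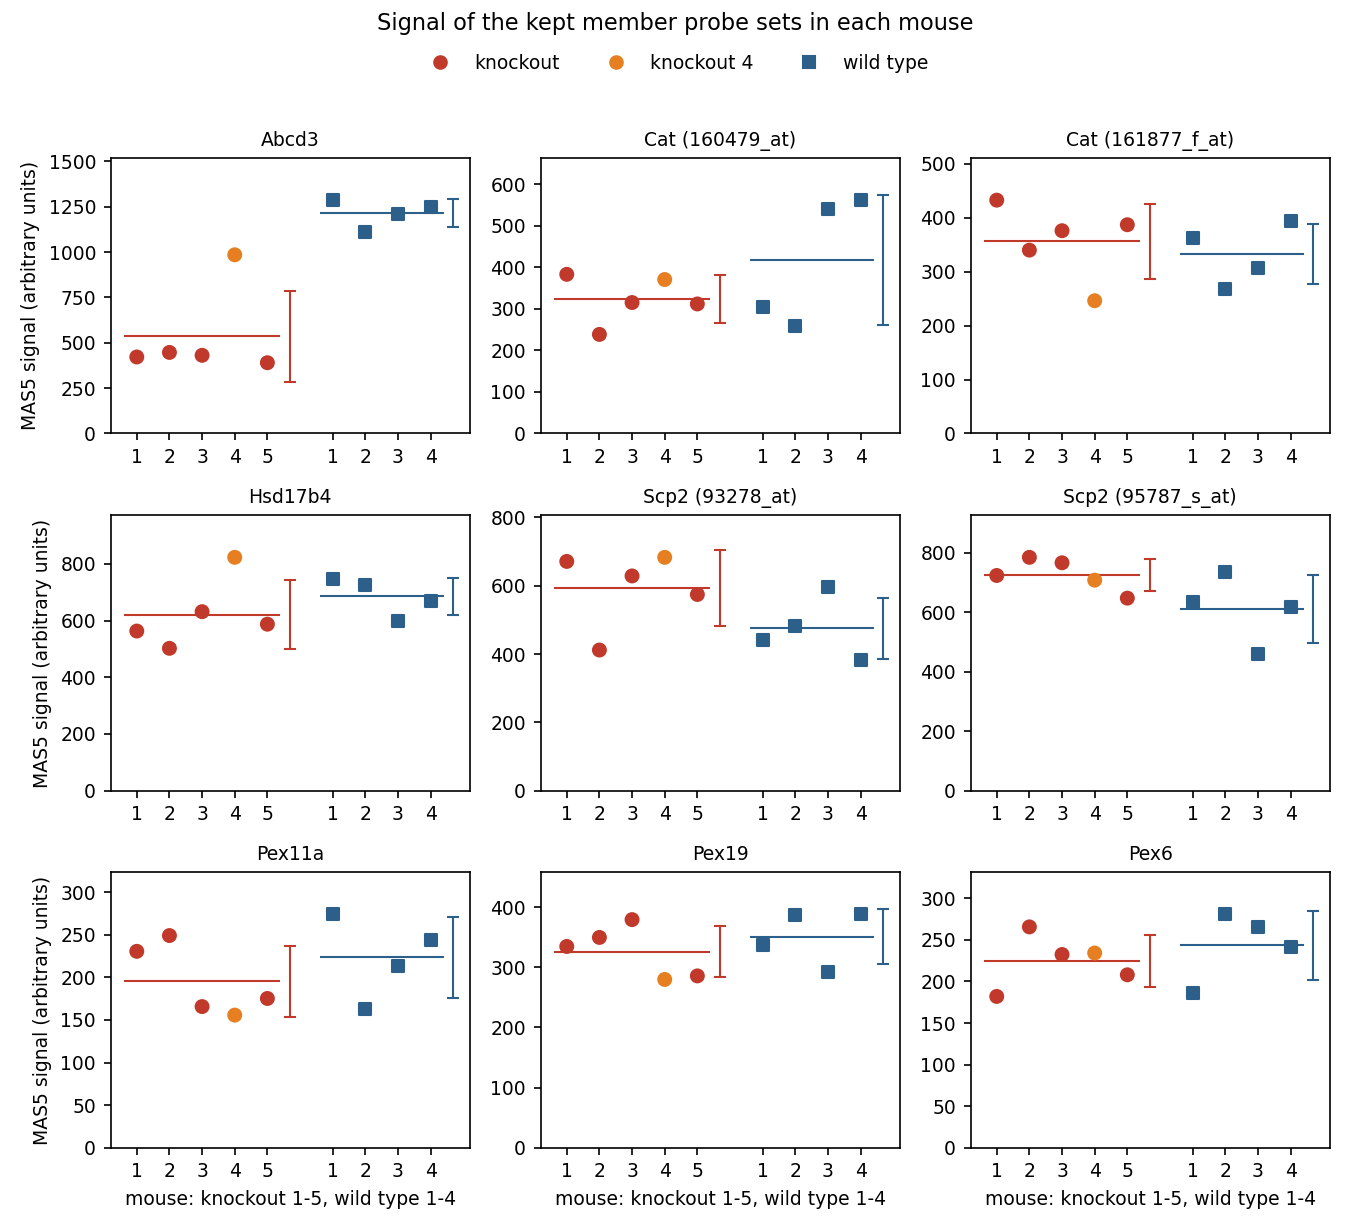
MAS5 signal (arbitrary units, axes from 0) of the 9 kept member probe sets in each mouse, with group means as lines and SD as bars (knockout n = 5, wild type n = 4). For Abcd3 knockout 4 (orange, 984.9) sits apart from the other knockout mice (390.1 to 446.8), and for the 8 other probe sets the groups overlap.

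The enzymes inside the organelle did not show this split. Cat encodes catalase, which breaks down hydrogen peroxide. Its main probe set read 383, 238.4, 315.1, 370.5 and 311.7 in the 5 knockout mice against 305.3, 259.8, 540.1 and 561.5 in the 4 wild-type mice. Wild type 3 and 4 were above every other mouse, while wild type 1 and 2 lay within the knockout range. The means were 324 ± 57.4 and 417 ± 156 (log2 difference -0.30, SE 0.24). The second probe set of Cat averaged 357 ± 70.0 and 333 ± 55.6 (log2 0.09, SE 0.18), so the probe sets of this gene differ in sign. Neither sign is settled, since within the 9-decimal arrays the values were 0.12 for the main and -0.13 for the second probe set. In that probe set knockout 4 was the lowest of all mice, at 246.3.

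Hsd17b4 encodes the D-bifunctional protein, which carries out the middle steps of peroxisomal fatty acid shortening. It read 562.9, 502, 631.2, 822.9 and 587.1 in the 5 knockout mice against 747.9, 724.9, 599.6 and 670.3 in the 4 wild-type mice. Knockout 4 was the highest of all 9 mice, and the other knockout mice lay at the lower end, with knockout 3 above wild type 3. Knockout 4 stood 0.53 (log2) above the mean of the other knockout mice, whose mean was 0.26 below that of wild type on the same scale (-0.26). Among the other members, this is the gene whose order of mice was nearest to that of Abcd3, but its groups overlapped, and its log2 difference was -0.16 (SE 0.15).

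Ehhadh, the L-bifunctional enzyme of the same pathway and a classic PPAR target in liver, was dim in skin. Its signal lay between 4.5 and 14.2 in all 9 mice and reached the filter level in none of them, so it was not kept and no fold is given. The filter level, the 40th percentile of each array, is a signal of 43.4 to 53.3.

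Scp2 encodes sterol carrier protein 2 and the thiolase SCPx, which cleaves branched acyl chains. Its signal was higher in the knockout means of both probe sets. The first read 671.3, 411.8, 628.8, 683.3 and 574.5 in the 5 knockout mice against 439.9, 481.5, 595.2 and 383.6 in the 4 wild-type mice, a log2 difference of 0.32 (SE 0.18). The second averaged 726 ± 53.8 against 612 ± 114 in the wild type (log2 0.26, SE 0.14). In both, the groups overlapped and the direction was opposite to that of Abcd3. Knockout 4 was the highest knockout mouse in the first probe set but not in the second.

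The peroxins did not share the values of Abcd3 either. Pex11a, which promotes elongation and division of peroxisomes, read 230.5, 249, 165.7, 155.7 and 175.2 in the 5 knockout mice against 273.7, 162.7, 213 and 244.3 in the 4 wild-type mice. Here knockout 4 was the lowest of all mice, opposite to its place for Abcd3. The log2 difference was -0.19 (SE 0.19). Within the 7-decimal arrays it was 0.23 and within the 9-decimal arrays -0.73, so its direction is not settled between these sets of arrays.

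Pex19, the chaperone that delivers membrane proteins such as PMP70 to the peroxisome, averaged 326 ± 42.5 against 351 ± 46.1 in the wild type (log2 -0.11, SE 0.14). Again knockout 4 was lowest, at 279.7. The second probe set of Pex19 stayed between 0.8 and 13.2 and was not kept. Pex6, an ATPase that pulls the import receptor back out of the membrane, averaged 224 ± 31.3 and 244 ± 41.2 (log2 -0.11, SE 0.16). Its value was 0.27 within the 9-decimal arrays, again with wild type 1 as their only wild-type mouse, and that mouse had the lowest wild-type signal, 186.6.

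In all, 9 of the 11 probe sets passed the filter, and they represent 7 of the 8 genes. Of the 9, 0 passed limma's threshold of adjusted p 0.05 in the comparison from which Abcd3 was chosen, against 0.0522% of the 7658 kept probe sets. At an unadjusted p under 0.05 the count was 1, Abcd3, against 9.4%. The groups failed to overlap in 1 of the 9, Abcd3 itself, against 3.21% of all kept probe sets. Nothing is read from these counts. Of the 8 probe sets other than Abcd3, 5 had lower and 3 had higher values in the knockout, between -0.30 and 0.32, with a median of -0.11 beside 0.01 over all kept probe sets. Knockout 4 was the highest knockout mouse in 2 of these 8, and it was so in 33.6% of all kept probe sets. Among the 37 other peroxisomal genes described next it was the highest in 17 (45.9%), against 34.1% of all genes.

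The other genes, called peroxisomal here, came from 5 lists with 81 genes, chosen by function. Where their products lie was not checked, and some, such as Sod1, are found mostly outside the organelle. The array names 43 of them and 37 were kept. None of the 37 passed limma's threshold in either direction, against 0.0342% of the 5855 genes read by their brightest kept probe set. The smallest limma adjusted p was 0.145 and 4 genes had an unadjusted p under 0.05, where 8.56% of all genes did. By value 15 were lower and 22 higher in the knockout (48.7% and 51.3% of all genes), with a median log2 difference of 0.04 beside 0.01 for all genes. The groups did not overlap in 3 of the 37 (Abcd2, Isoc1 and Tysnd1), or 8.11%, against 3.11% of all genes.

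Of the 6 kept genes of the membrane transporter list, Abcd2, the closest relative of the adrenoleukodystrophy transporter, went the other way from Abcd3. It read 75.4, 111.9, 97.7, 90.1 and 80.4 in the 5 knockout mice against 62.1, 54.8, 47.2 and 57.9 in the 4 wild-type mice, and knockout 4 lay in the middle of its group. The log2 difference was 0.71 (SE 0.18, limma adjusted p = 0.311). The wild-type values are close to the filter level, and with a pseudocount of 64 the difference was 0.37, so its size is uncertain. Slc25a17, the carrier of nucleotides and cofactors in the membrane, had a log2 difference of -0.16 (SE 0.12) and the channel protein Pxmp2 one of -0.18 (SE 0.14). Mpv17, of the same protein family as Pxmp2, had a log2 difference of 0.11.

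Of the 7 kept genes of peroxisome import and division, Pex14, the docking protein of the import pore, had a log2 difference of -0.34 (SE 0.17, limma adjusted p = 0.560). The other kept probe sets of Pex14 gave -0.08 and 0.42, so they differ in sign. The import receptors Pex5 and Pex7 had log2 differences of 0.26 and 0.16. Mff, an adaptor for the fission machinery of peroxisomes and mitochondria, read 340.9, 344.5, 388.6, 447.1 and 369.9 in the 5 knockout mice. It read 500.7, 394.8, 477.8 and 388.9 in the 4 wild-type mice. Knockout 1, 2, 3 and 5 lay below every wild-type mouse, by as little as 0.3 signal units, and knockout 4 was inside the wild-type range. Its log2 difference was -0.22 (SE 0.13, limma adjusted p = 0.647).

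Among the 11 kept genes of peroxisomal fatty acid oxidation, the thiolase Acaa1b had a log2 difference of 0.33 (SE 0.24), the bile acid conjugating enzyme Baat -0.26 and the racemase Amacr -0.64 (SE 0.49). Ech1, a dienoyl-CoA isomerase, read 892.5, 854.4, 927.5, 1319.2 and 935.8 in the 5 knockout mice against 892.3, 1263.6, 1173.5 and 1210.9 in the 4 wild-type mice. The highest of all mice was knockout 4, and wild type 1 lay among the other knockout mice. The log2 difference was -0.21 (SE 0.15, limma adjusted p = 0.714), and within the 9-decimal arrays, with wild type 1 alone, it was 0.23. Gnpat, which starts ether lipid synthesis, had a log2 difference of 0.21 (SE 0.12).

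Of the 12 other enzymes kept, Isoc1, a protein found in peroxisomes whose role is little known, was the nearest to the threshold. It read 448.7, 528.7, 475.8, 573.8 and 447.4 in the 5 knockout mice against 299.4, 334, 332.4 and 313.1 in the 4 wild-type mice, each knockout mouse above each wild-type mouse. The highest was knockout 4, and so farthest from the wild type. The log2 difference was 0.62 (SE 0.12, limma adjusted p = 0.145). Tysnd1, the protease that trims imported enzymes, had a log2 difference of -0.31 (adjusted p = 0.463) and the NADPH-producing dehydrogenase Idh1 one of 0.39 (adjusted p = 0.471), both by limma. For Idh1 it was 0.61 within the 7-decimal and 0.02 within the 9-decimal arrays. Sod1, a superoxide dismutase found mostly in the cytosol, had a log2 difference of -0.18.

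**Figure D2:**
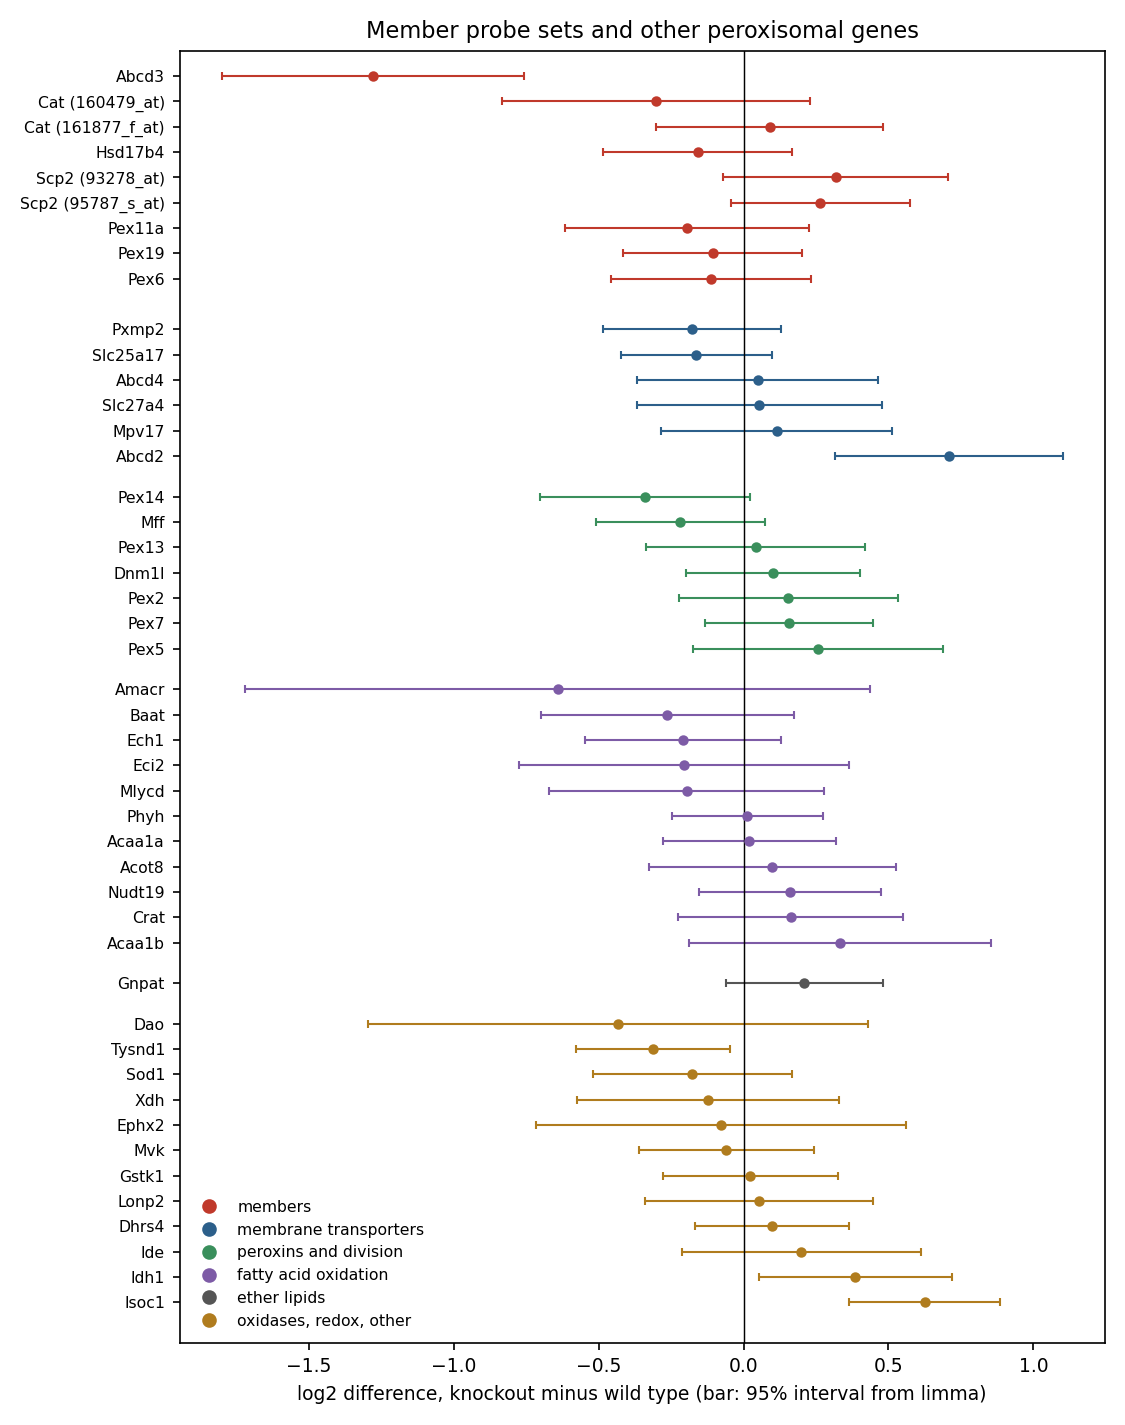
Log2 difference (knockout minus wild type, x axis) with its 95% interval from limma for the 9 kept member probe sets (top, red) and the 37 other peroxisomal genes, grouped by list (n = 5 and 4 mice). Abcd3 lies at -1.28, and the other 8 member probe sets between -0.30 and 0.32.

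Of the 9 genes in the list of PPAR receptors and partners the array names 7, and the 5 that were kept did not follow Abcd3 either. Ppard (3.3 to 40.5) and the coactivator Ppargc1a (0.8 to 16.9) stayed under the filter level, so nothing is said of them. All 5 kept genes had higher values in the knockout (log2 0.10 to 0.47), as did 51.3% of all genes. By limma 0 passed the threshold (0.0342% of all genes) and 1, Ncoa1, had an unadjusted p under 0.05 (8.56% of all genes). Ppara, the receptor behind peroxisome proliferation in liver, had a log2 difference of 0.24 (SE 0.23), its partner Rxra 0.17 (SE 0.12) and Pparg, the adipocyte and sebocyte form, 0.10. The coactivator Ncoa1 came nearest, at 0.47 (SE 0.18, limma adjusted p = 0.458), or 0.27 with a pseudocount of 64 and 0.19 within the 9-decimal arrays. Rxrb, a further partner, read 662.7, 854.9, 747.9, 330.9 and 649.2 in the 5 knockout mice against 576.9, 398.9, 552.9 and 605.1 in the 4 wild-type mice. The lowest of all mice here was knockout 4, and the other knockout mice were above all wild-type mice.

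Of the 15 kept PPAR targets outside the peroxisome, 11 had lower and 4 higher values (48.7% and 51.3% of all genes), with a median of -0.17. By limma 0 passed the threshold (0.0342% of all genes) and 1, Slc27a1, had an unadjusted p under 0.05 (8.56% of all genes). The fatty acid transporter Slc27a1 had a log2 difference of -0.58 (SE 0.19, limma adjusted p = 0.405). The mitochondrial carrier Slc25a20 had one of -0.23 and the dehydrogenase Acadl one of -0.26. Pdk4, a kinase that turns cells from sugar to fat as fuel, read 331.4, 144.4, 130.6, 588.8 and 157.3 in the 5 knockout mice against 286.8, 149.6, 2427.3 and 2424.6 in the 4 wild-type mice. Its high values were thus those of wild type 3 and 4, and wild type 1 and 2 lay within the knockout range. Wild type 3 and 4 were both above the 7 other mice in 8 of the 15 targets, against 7.33% of all genes, a pattern that was counted after the values were seen and was not tested. The same mice were highest in the main probe set of Cat but not in its second one, in 0 of the 5 receptor genes, and in 3 of the 37 other peroxisomal genes (Amacr, Eci2 and Mlycd).

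The order of the mice was then counted over the whole array. Where knockout 1, 2, 3 and 5 all lay on one side of every wild-type mouse with knockout 4 within the span of the wild-type mice or past its far end, 144 probe sets (1.88%) qualified. They held 0 of the 9 member probe sets, since knockout 4 was just below the wild-type range for Abcd3 itself. A second form, chosen after the values were seen, asks that knockout 4 be nearer in log2 to the wild-type mean than to the mean of the other knockout mice. It was met by 166 probe sets (2.17%), 97 (1.27%) with the 4 knockout mice lower and 69 with them higher. Among the member probe sets it was met by Abcd3 alone, and among the 43 kept probe sets of the other peroxisomal genes by Mff alone (2.33%). Among the PPAR genes it was met by Rxrb, in the opposite direction.

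**Figure D3:**
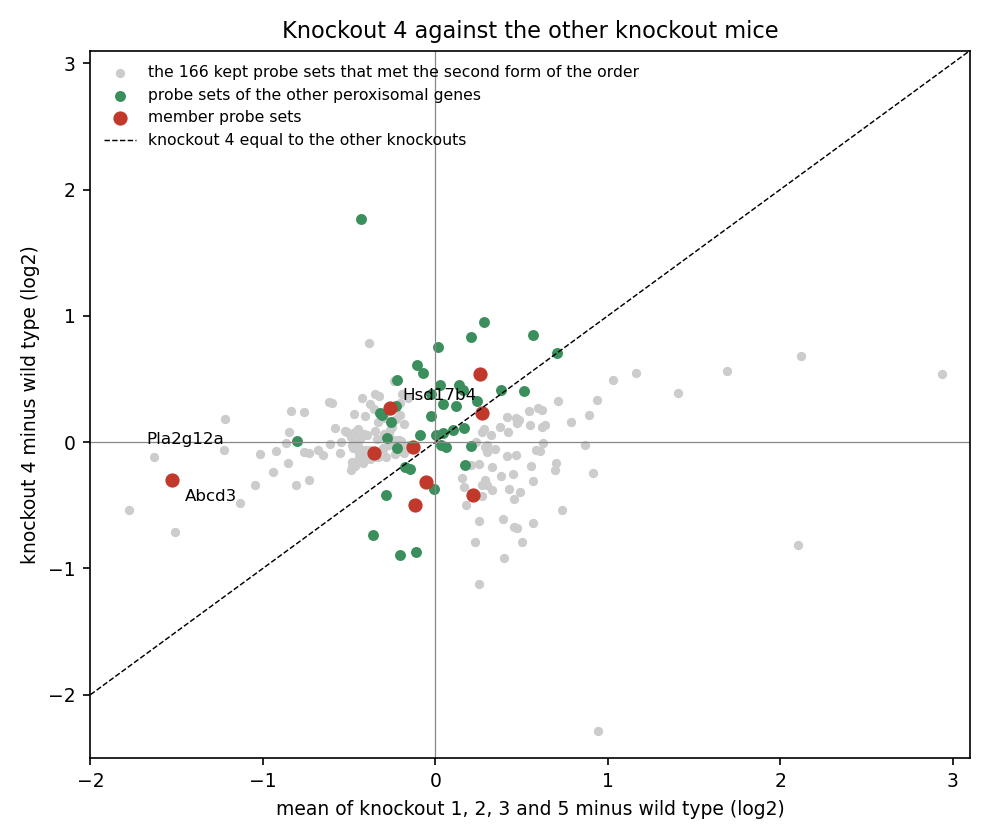
Knockout 4 minus the wild-type mean (y axis) against the mean of knockout 1, 2, 3 and 5 minus the wild-type mean (x axis), both in log2. Abcd3 lies at -1.52 and -0.30, far from the other member probe sets (red), and the grey points are the 166 probe sets that met the second form of the order.

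Likeness to Abcd3 was measured as the root mean square difference between log2 profiles over the 9 mice, each centred on its own mean. Only kept probe sets that name 1 gene were ranked. Those with several genes or none were left out, and 14 of them met the second form of the order. A gene that did not vary at all would have a difference of 0.74 from Abcd3. Of the members, Hsd17b4 was nearest, at 0.61 and rank 280 of 6918 probe sets. The main probe set of Cat followed at 0.67 and Pex6 at 0.71, while Pex11a and Pex19 (both 0.75), both probe sets of Scp2 (0.89 and 0.88) and the second one of Cat (0.89) were farther from Abcd3 than a flat profile. Of the other peroxisomal genes the nearest were Ech1 at 0.60 (rank 218) and Mff at 0.61 (rank 246). Of their 43 probe sets, 13 were nearer than a flat profile, and so were 30.7% of all probe sets ranked.

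The 10 genes most like Abcd3 held 0 genes of the peroxisome lists. The nearest was Pla2g12a, a secreted phospholipase A2, at 0.27. Next came Ablim1, which binds actin, at 0.28, and the globins Hba-a1 and Hbb-b2 at 0.31 and 0.36. Vopp1 (0.39), Cd86, a costimulatory molecule of antigen-presenting cells (0.41), the vesicle protein Vamp5 (0.43), Card19 (0.44), the alcohol dehydrogenase Adh7 (0.45) and the mitochondrial uncoupling protein Ucp3 (0.46) completed the list. Of the 10, 2 lie on chromosome 3, Pla2g12a and Adh7, and 7 met the second form of the order. Adh7 and both globins did not meet it. For Adh7 knockout 4 was 0.82 (log2) below the wild-type mean and only 0.03 above the other knockout mice. For Hba-a1 and Hbb-b2 it was 0.99 and 1.07 below the wild-type mean. With Pearson correlation as the measure 3 of the 10 names were shared, those of Pla2g12a, Ablim1 and Hba-a1.

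Position was compared next, since Abcd3 and the deleted gene lie on the same chromosome. In the RefSeq gene order, 158 of the 303 measured genes of chromosome 3 lie between Cd1d1 and Abcd3. Pla2g12a is the tenth measured gene on the far side of Abcd3. It read 207.5, 191.4, 240.9, 620.5 and 233.7 in the 5 knockout mice against 881.6, 713.1, 687.6 and 473.8 in the 4 wild-type mice. Knockout 1, 2, 3 and 5 were low together and knockout 4 was inside the wild-type range, above wild type 4. The wild-type mice were 3.09-fold above the 4 low knockout mice, where the same ratio was 2.88-fold for Abcd3.

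The log2 difference of Pla2g12a was -1.33 (SE 0.32, limma adjusted p = 0.283), and without knockout 4 it was -1.63 (SE 0.18). Without that mouse the gene passes limma's threshold, but nothing is read from this, since its profile with knockout 4 included is what ranked it nearest to Abcd3. This probe set is of a type that can read several related transcripts. The other probe set of Pla2g12a, dim at 45.0 ± 10.8 and 47.0 ± 21.3, gave 0.09 (SE 0.41), so the result rests on 1 of 2 probe sets. The 250 bases before the start of Pla2g12a (GRCm38.p6, chr3:129880934-129881183, plus strand) are shown beside those of Abcd3 because no gene was nearer to it in profile, again with CG pairs in capitals.

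Pla2g12a: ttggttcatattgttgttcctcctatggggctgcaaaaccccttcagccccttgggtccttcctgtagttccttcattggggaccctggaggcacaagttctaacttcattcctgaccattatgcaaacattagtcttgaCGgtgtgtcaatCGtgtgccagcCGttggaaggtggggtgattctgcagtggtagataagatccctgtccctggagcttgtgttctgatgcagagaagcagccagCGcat

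The window of Pla2g12a holds 4 CG pairs against 34 in that of Abcd3, and its G and C content is 50.8% against 72.0%. Of the letters searched, it holds CCAAT once, on the minus strand, and none of the others, so these windows share no match.

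Most other neighbours of Abcd3 did not share its values. Of the 10 nearest measured genes on each side, 9 had lower and 11 had higher values in the knockout, with a median of 0.04, and 0 of the 20 passed limma's threshold with all arrays, with 2 (10%) at an unadjusted p under 0.05, where 8.56% of all genes were. Tlcd4, a gene of the TLC domain family and the third measured gene on the Cd1d1 side, met both forms of the order. It read 155.8, 146.2, 138.4, 239.7 and 136.8 in the 5 knockout mice against 203.1, 175.5, 163.2 and 195.8 in the 4 wild-type mice. Knockout 4 was the highest of all mice, and the difference was small (log2 -0.20, SE 0.18, limma adjusted p = 0.767). The 2 were Pla2g12a and Dbt, a subunit of the enzyme that degrades branched amino acids. Dbt was higher in each knockout mouse than in each wild-type mouse, knockout 4 included (log2 0.67, SE 0.23, limma adjusted p = 0.430). It is dim, reaching the filter level in 4 of 9 arrays, and with a pseudocount of 64 its difference was 0.30.

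**Figure D4:**
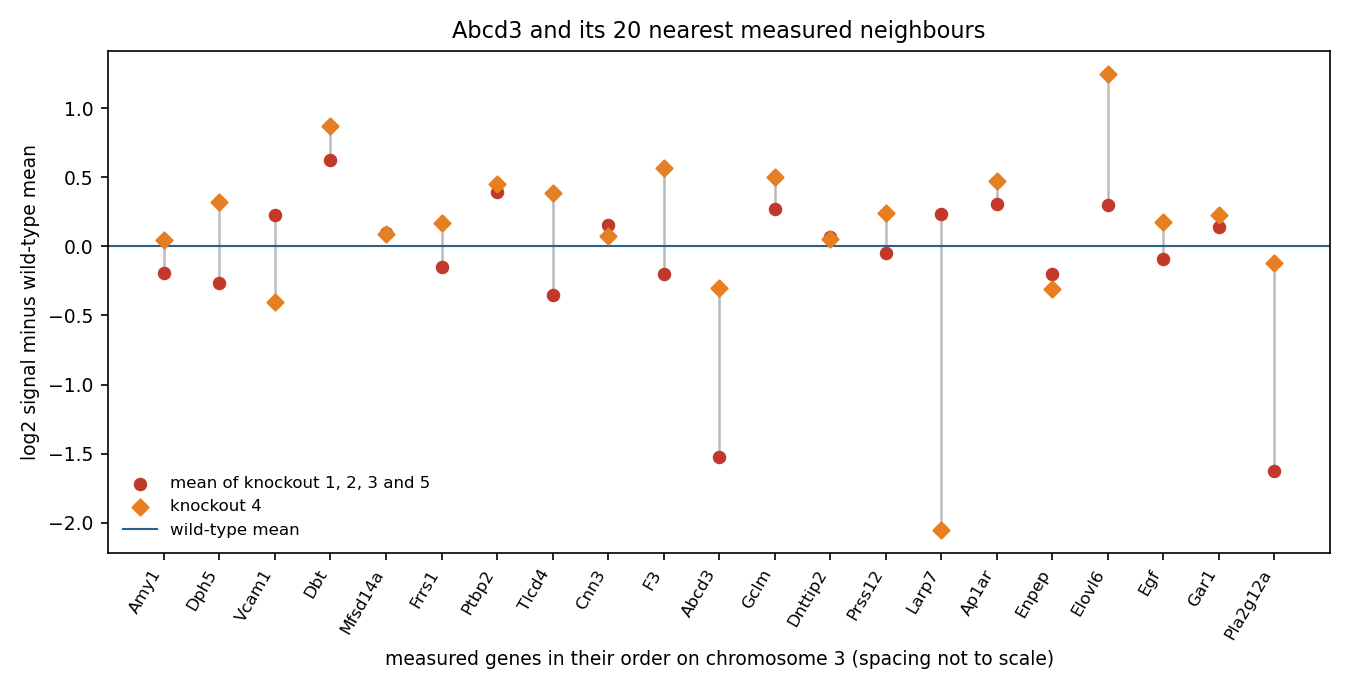
Mean of knockout 1, 2, 3 and 5 (circles) and knockout 4 (diamonds), each minus the wild-type mean in log2, for Abcd3 and its 20 nearest measured neighbours in chromosome order (distances not to scale). Abcd3 (-1.52 and -0.30) and Pla2g12a (-1.63 and -0.12) share low circles with diamonds near the wild-type mean, with genes in between that do not.

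Between Cd1d1 and Abcd3, 14 of the 158 measured genes (8.86%) had an unadjusted p under 0.05, beside 8.56% of all genes, and 2, Cd53 and Tlcd4, met the second form of the order. On all of chromosome 3, 9 of 371 kept probe sets (2.43%) met it, beside 2.17% of all kept probe sets. The 9 include Abcd3, from which the order was taken, so nothing is read from this share. The targeted gene did not single out knockout 4. Cd1d1 read 58.2, 65, 79.6, 47.6 and 51.1 in the 5 knockout mice against 112.4, 101.1, 91 and 130 in the 4 wild-type mice, so knockout 4 had the lowest Cd1d1 signal of all mice. The values of knockout 4 and 5 are close to the filter levels of their arrays (46.6 and 50.84), so their rank is uncertain. The log2 difference was -0.86 (SE 0.20, limma adjusted p = 0.242).

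Markers of skin cells were set beside these results. The epidermal list (7 of 10 markers kept) summed to between 27201 and 29696 in knockout 1, 2, 3 and 5, to 40789 in knockout 4 and to between 28498 and 30884 in wild-type skin. Krt1, a keratin of maturing epidermis, was at 5312.3 in knockout 4 and between 1295.2 and 2736.4 elsewhere, and loricrin (Lor) was at 10274 against 4252.2 to 7093.4. Other markers of the list stood out less. Krt10 was at 8270.2 in knockout 4 against 5946.7 to 6786.3, and Krtdap, at 8743.9 in knockout 4, was below wild type 2 (8980.9). The probe sets of the basal keratins Krt5 and Krt14 stayed under the filter level in all mice. With the epidermal median of each array as a covariate, chosen after the values were seen, the log2 difference of Abcd3 was -1.31 (SE 0.12). That median was 0.2048 in knockout 4 and between -0.1131 and 0.006 in the other arrays. The covariate thus largely sets knockout 4 apart, and nothing is read from this fit or its SE.

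Knockout 4 also had the lowest median of the hair follicle list (18 of 28 markers kept), whose sums ran from 2549 to 40766 in knockout and from 2173 to 4668 in wild-type skin. With that median as a covariate the log2 difference of Abcd3 was -0.995 (SE 0.22). The sebocyte list (4 of 12 kept) summed to between 9027 and 13680 in knockout and between 9096 and 13181 in wild-type skin, and knockout 4 had the highest sum. The adipocyte list (9 of 12 kept) summed to between 4650 and 6100 and between 3984 and 6946. The macrophage list (11 of 11 kept, all with lower values in the knockout, 0 passing limma's threshold) summed to between 10022 and 11977 in knockout. In wild-type mice it summed to between 12178 and 14027. For this and the later lists, the shares of all genes were 48.7% with lower values and 0.0342% passing. Knockout 4 had the highest knockout sum of the macrophage list, but by its median knockout 5 was the highest knockout mouse (0.0722, knockout 4 at 0.0027). The endothelial list (6 of 6 kept, all with lower values in the knockout, 0 passing) had the order of Abcd3 in its sums. They were 965 to 1117 in knockout 1, 2, 3 and 5, 1439 in knockout 4 and 1123 to 1349 in wild-type mice. Its marker Eng, which has this order itself, weighs heavily in them, at 920.1 in knockout 4 and 518.2 to 653.6 in the other knockout mice. By the median of the list the order held too, though narrowly. Knockout 1, 2, 3 and 5 were at -0.2604 to 0.023, knockout 4 at 0.0566 and the wild-type mice at 0.0235 to 0.3281. Knockout 3 (0.023) and wild type 1 (0.0235) were almost equal. The fibroblast list (6 of 7 kept) summed to between 15635 and 24691 in knockout, highest in knockout 4, and between 15712 and 20915 in wild-type mice. The skeletal muscle list (12 of 13 kept, 11 with lower values, 0 passing) summed to between 41726 and 50677 against 46025 to 65923. The melanocyte list (4 of 7 kept, all with higher values in the knockout, as had 51.3% of all genes, 0 passing) summed to between 353 and 1459 in knockout. In wild-type mice it summed to between 357 and 419. Knockout 4 had its lowest sum, but not its lowest median. The sums of the macrophage list do not overlap between the genotypes and those of the other lists do. The part of the sebocyte, adipocyte, macrophage, endothelial, fibroblast, muscle and melanocyte markers in the values of the peroxisomal genes was not tested.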

How the data were processed

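RNA of whole skin from 9 mice was read on 1 array each. Per the labels, the authors computed signals with Microarray Suite 5.0 (MAS5). The deposited values are natural log signals, found from the values themselves: their exponentials are whole multiples of 0.1 (within 0.001), with equal trimmed means between arrays. Dividing by the natural log of 2 turned them into log2 values, with no further normalisation. The 66 control probe sets were left out, and 1 value is missing. Kept probe sets reached the array's 40th percentile in at least 4 arrays. Genes were named through the platform annotation and the RefSeq table of GRCm38.p6.

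Groups were compared with limma 3.58.1 (R 4.3.3) in a two-sided test that lets the variance follow the mean. P-values were adjusted by Benjamini-Hochberg across 7658 probe sets. The procedure was tested on simulated data. Each gene of a list was read by the brightest of its kept probe sets. The members and lists were chosen with earlier results of these data known. The text names all members, genes of the lists that share the order of Abcd3 or are among the 4 with the smallest p, the 10 nearest profiles, and neighbours with an unadjusted p under 0.05 or that order. Other genes and the second form of the order were chosen after their values were seen. Without detection calls, the background level of a probe set is unknown. Alternatives were other scalings, filters, a pseudocount of 64, variance models, covariates, blocks and each array left out.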

Additional observations from a re-analysis of the deposited data

Results flagged for a closer look

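A mouse far from the rest of its group was looked for among 49 named probe sets, in each genotype, by its gap to the nearest mouse as a share of the group's range on the log2 scale. Chance alone gives such a mouse in about 1 of 20 groups, and 8 were found in 98. Knockout 4 was the highest knockout mouse for Abcd3 (984.9, a share of 0.853), Pla2g12a (620.5, 0.804), Ech1 (1319.2, 0.791) and Tlcd4 (239.7, 0.768), and the lowest for Rxrb (330.9, 0.710). Several of these genes are named because their order of mice is that of Abcd3, so their number says nothing more. Elsewhere, wild type 2 was low for the import receptor Pex5 (81.1, 0.914), knockout 5 for the racemase Amacr (15.6, 0.813) and knockout 3 for Idh1 (356.1, 0.760).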

How the results depend on the processing

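The log2 difference of Abcd3 stayed between -1.52 (without knockout 4) and -0.995 (hair follicle covariate) over its 22 alternatives. The median of the 8 other member probe sets moved by less than the spread between mice in all 22, and 173 of the 176 values of single member probe sets did so, the exceptions being Pex11a within both sets of arrays and Pex6 within the 9-decimal arrays. None of these 176 had a limma adjusted p under 0.05. The count of other peroxisomal genes that passed was 0 in all 23 alternatives, with a median log2 difference of 0.00141 to 0.07 when 1 mouse was left out. Over all kept probe sets 4 passed limma's threshold. The count was 7 with pseudocount 64, 9 with array weights, 7 with the epidermal covariate, 10 within the 7-decimal arrays and 0 within the 9-decimal arrays (186 at an unadjusted p under 0.05), and 4 to 8 with 1 mouse left out, reaching 7 without knockout 2 or knockout 3 and 8 without knockout 4. Of the 20 neighbours on chromosome 3, 0 passed, 1 (Pla2g12a) passed with array weights and 1 with the epidermal covariate, and 0 to 1 with 1 mouse left out, the 1 without knockout 4. Since the epidermal covariate largely sets knockout 4 apart from the other arrays, nothing is read from the counts with it. Ech1 changed sign within the 9-decimal arrays (0.23). Among the members the sign also changed for both probe sets of Cat and for Pex6 within the 9-decimal arrays, for Pex11a within the 7-decimal arrays, for Hsd17b4 (0.03) and the second Cat probe set (-0.05) with the hair follicle covariate, and for the latter without wild type 2. With the replicate number as a block (knockout 1 to 4 and wild type 1 to 4) 1 probe set passed, and Abcd3 was at -1.19. Same-numbered mice did not deviate together (correlations 0.11, -0.01, -0.05 and 0.02, beside -0.18 to 0.20 for mice of unlike number). No pairing by number is thus seen, but a weak one could be hidden by other differences between mice. The arrays carry no detection calls, so probe sets near the filter level, such as Abcd2, have uncertain folds.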

Other observations

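Wild type 3 and 4 stood above the 7 other mice in 8 of the 15 PPAR targets outside the peroxisome, against 7.33% of all genes. The 8 were Angptl4, Cpt1a, Cpt2, Hadhb, Pdk4, Slc25a20, Slc27a1 and Vnn1. Angptl4, a secreted inhibitor of lipoprotein lipase, read 518 and 509.9 in these mice and 136.2 to 253.1 in the others. Cpt1a, which admits fatty acids to mitochondria, read 1306.6 and 1436.1 against 530.2 to 1020.3. These Angptl4 values are from its brightest probe set. Another kept probe set of Angptl4 also had wild type 3 and 4 highest (316.2 and 263.5 against 91.4 to 163.7). A further one did not, at 116.1 and 107.9 in these mice against 119.0 in knockout 1. Vnn1 was dim, reaching the filter level in 5 of 9 arrays. In the other 7 targets, among them Acadm, Acadl, Fabp3 and Plin2, at least 1 other mouse was as high as wild type 3 or 4. The pattern was counted after the values were seen, and whether these mice share a batch or a feeding state is not given in the sources used here.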
